A study of Mus musculus with 9 samples.

Results

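Genes of T cell costimulation and immune checkpoints were followed in macrophages sorted from mouse lungs as 3 populations. They were *Cd80*, *Cd86*, *Cd40*, *Cd274*, *Pdcd1lg2*, *Havcr2*, *Lgals9*, *Sirpa*, *Cd47* and *Pvr*. They were chosen by name for these roles, with earlier results of these data known, and make up 10 of the 24346 gene symbols in the data. All 10 passed the filter on low values (3 or more of the 9 samples with an FPKM of 1 or more), which left 10686 genes to be tested.

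A macrophage that presents antigen to a T cell gives it further signals through surface ligands. CD80 and CD86 engage CD28 to promote activation and CTLA-4 to restrain it, CD40 receives help from T cells that carry its ligand, and PD-L1 and PD-L2 engage the inhibitory receptor PD-1. Other pairs restrain lymphocytes or phagocytes themselves, such as galectin-9 with TIM-3, PVR with TIGIT, and CD47 with SIRPα, the signal by which cells avoid being engulfed.

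The samples came from female C57BL/6 mice at postnatal week 10. The left lung had been inoculated with tdTomato-expressing Lewis lung carcinoma (LLC) cells, a transplantable line of C57BL/6 origin, or with vehicle, which the authors describe as PBS. The tumor cells were suspended in PBS and Matrigel, and the authors do not say whether the vehicle also held Matrigel. No other allele or agent was named for these mice. CD45+ autofluorescent cells were sorted from digested lungs. Alveolar macrophages (AMs), Siglec-F+ and F4/80+, were taken from control lungs (Ctrl-AM) and from tumor-bearing lungs (Tumor-AM). Siglec-F−, F4/80+ and CD11b+ cells of tumor-bearing lungs, regarded as tumor-associated macrophages (TAMs), made up the Tumor-macrophage group. Each group held 3 samples, each from a different mouse as far as the methods say, and no source says which Tumor-AM and Tumor-macrophage samples shared a mouse. The tumor cells were of 1 line, so the comparisons concern LLC tumors.

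The sorted identities were checked against marker genes. The summed FPKM of 8 AM markers was 24600 to 30200 for Ctrl-AM, 21600 to 38700 for Tumor-AM and 259 to 587 for Tumor-macrophage. Most of the sum in AMs was *Chil3*, with means of 25740 for Ctrl-AM and 26230 for Tumor-AM. All 8 had a lower mean in Tumor-macrophage than in either AM group, to unlike degrees. *Siglecf*, the gate's own marker, averaged 0.651 there against 171.5 for Tumor-AM. *Mrc1* averaged 70.0 against 136.7, and *Siglec1* 17.0 against 40.5. *Marco* ranged from 60.2 to 329.1 within Tumor-AM. The 4 TAM marker genes (*Ccr2*, *Cx3cr1*, *Tgfb3*, *Ly6c2*) summed to 149 to 193 for Tumor-macrophage, 11.7 to 14.3 for Tumor-AM and 6.58 to 8.35 for Ctrl-AM. Depth was estimated at 10200000 to 12800000 reads per sample. In these bulk samples, fewer cells of a type and less RNA per cell cannot be told apart.

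The 3 questions were how AMs differed between tumor-bearing and control lungs, how TAMs differed from AMs of tumor-bearing lungs, and how TAMs differed from control AMs. Differences are given on the log2(FPKM + 1) scale with their standard error (SE), which understates the change of genes near an FPKM of 1. Adjusted p-values are from limma, two-sided, with Benjamini-Hochberg adjustment over all 10686 genes. In Tumor-AM against Ctrl-AM, 4 of the 10 genes were higher (*Cd274*, *Cd86*, *Pvr*, *Lgals9*) and 0 were lower by limma, against 7.11% and 3.18% of all tested genes. At an unadjusted p under 0.05, 6 were higher and again 0 were lower, against 15.1% and 9.45% of all tested genes. In Tumor-macrophage against Tumor-AM, 6 were higher (*Cd40*, *Cd86*, *Pvr*, *Pdcd1lg2*, *Lgals9*, *Havcr2*) and 3 were lower (*Cd47*, *Sirpa*, *Cd274*), against 24.2% and 24.4% of all genes. In Tumor-macrophage against Ctrl-AM, 6 were higher and 2 were lower, against 27.7% and 27.1%. The median difference of the 10 genes was 0.28, 0.69 and 0.54 in these comparisons, where that of all tested genes was 0.01, 0.00 and -0.01. Without overlap between the samples of the 2 groups, 6 of the 10 were higher and 0 lower, then 6 and 3, then 7 and 2. Of all tested genes, 18.9% were higher and 13.4% lower without overlap, then 27.6% and 27.8%, then 31.1% and 31.1%.

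**Figure D1:**
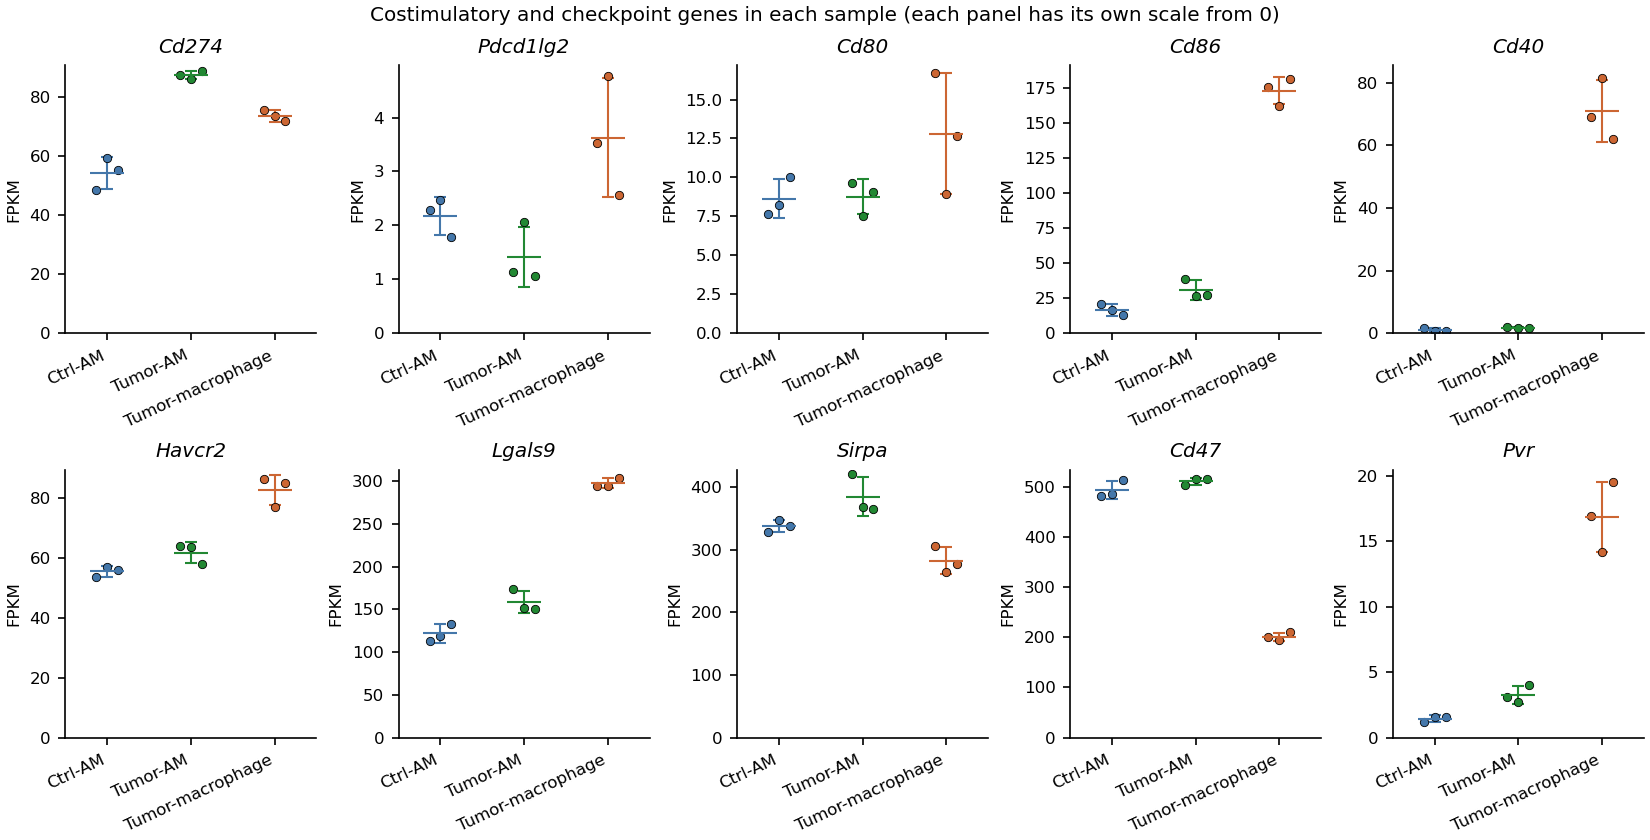
FPKM of the 10 genes in each sample (points) of Ctrl-AM, Tumor-AM and Tumor-macrophage, with the mean (wide bar) and SD of 3 samples. Each panel has its own vertical axis from 0. *Cd40* stays at or under 2.03 in all 6 AM samples and lies at 62.1 or above in the 3 Tumor-macrophage samples, while *Cd274* is highest in Tumor-AM.

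The largest difference among the 10 genes was in *Cd40*, a receptor of the TNF receptor superfamily on antigen-presenting cells that licenses them for T cell priming (chr2:165055627-165072948, plus strand, 9 exons, positions here and below on GRCm38 as annotated by GENCODE vM21). Its FPKM was 1.63, 0.707 and 0.617 for Ctrl-AM, 2.03, 1.63 and 1.79 for Tumor-AM, and 69.0, 81.5 and 62.1 for Tumor-macrophage. All 3 Tumor-macrophage samples stood far above the 6 AM samples, whereas Ctrl-AM 1 overlapped the lowest Tumor-AM sample. *Cd40* was higher in Tumor-macrophage compared with Tumor-AM by 4.67 ± 0.18 (SE, adjusted p = 1.12e-08), 39.1 times in mean FPKM. Between the AM groups it differed by 0.54 ± 0.18, which did not pass the threshold (adjusted p = 0.0954, 95% confidence interval 0.13 to 0.94). It passed when Ctrl-AM 1 was left out (0.76, adjusted p = 0.0170), so 1 control sample decided this call. The AM values rested on an estimated 24 to 67 reads per sample.

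*Cd86* (chr16:36603869-36666081, minus strand), one of the pair of B7 ligands of CD28 and CTLA-4, followed a graded order over the 3 populations. Its FPKM was 21.2, 16.6 and 12.8 for Ctrl-AM, 39.0, 26.8 and 27.1 for Tumor-AM, and 175.2, 162.1 and 181.1 for Tumor-macrophage. No group overlapped another. It was higher in Tumor-AM compared with Ctrl-AM by 0.84 ± 0.18 (adjusted p = 0.0146), and higher in Tumor-macrophage compared with Tumor-AM by 2.46 ± 0.18 (adjusted p = 9.16e-07). Without Ctrl-AM 3, its lowest sample, the first of these differences was 0.67 with an adjusted p of 0.0521.

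*Cd80* (chr16:38455561-38496335, plus strand), the other B7 ligand, lies on the same chromosome and did not pass the threshold in any comparison of the fit over all samples. It was at 7.64, 8.22 and 10.05 for Ctrl-AM, 9.68, 7.54 and 9.10 for Tumor-AM, and 16.7, 8.97 and 12.7 for Tumor-macrophage. Tumor-macrophage 2 lay within the range of the AMs and the others lay above it. The difference between the AM groups was 0.02 (95% confidence interval -0.41 to 0.45), that of Tumor-macrophage against Tumor-AM was 0.46 ± 0.19 (adjusted p = 0.0701), and that against Ctrl-AM was 0.49 ± 0.19 (adjusted p = 0.0538). Without Tumor-macrophage 2 these differences of Tumor-macrophage became 0.68 (adjusted p = 0.00678) and 0.70 (adjusted p = 0.00487), and without Ctrl-AM 3 the last was 0.59 (adjusted p = 0.0463). Tumor-macrophage 2 had the lowest *Ccr7* of its group, at 14.3 against 33.6 and 27.9, and the lowest sum of B cell markers, at 31.5. It was also lowest in the macrophage genes *Csf1r* (457.8 against 599.4 and 538.7) and *Adgre1* (321.4 against 409.3 and 442.1). It was not lowest in *Itgam*. Among the dendritic cell markers it was also lowest in *Cd209a*, at 6.92 against 16.9 and 14.25, and *Clec9a*, at 0.595 against 2.31 and 0.960. The same held for *Ccl22*, *Zbtb46*, *Itgae*, *Fscn1* and *Cacnb3*, but not for *Xcr1* and *Flt3*. The reason for its lower *Cd80* was not tested.

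The ratio of *Cd86* to *Cd80* within a sample does not depend on how the sample was scaled. It was 2.77, 2.02 and 1.28 for Ctrl-AM, 4.03, 3.55 and 2.98 for Tumor-AM, and 10.5, 18.1 and 14.3 for Tumor-macrophage. The groups did not overlap in any of the 3 comparisons, and each exact permutation test gave p = 0.1, the smallest that 3 samples against 3 can give. The 4 ratios described here were chosen after the values had been seen, so each is a description.

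CD40, CD80 and CD86 are also made by dendritic cells and B cells, which express few or none of the AM markers. The 10 dendritic cell markers summed to 33.0 to 68.9 FPKM in Tumor-macrophage, 14.7 to 22.5 for Tumor-AM and 26.4 to 30.0 for Ctrl-AM, and 3 of 6 tested were higher in Tumor-macrophage compared with Tumor-AM. These were *Ccr7*, *Xcr1* and *Cd209a*, while *Zbtb46*, at 0.783, and *Flt3*, at 0.860, were low in Tumor-macrophage. Of all tested genes, 24.2% were higher in Tumor-macrophage compared with Tumor-AM. The 6 B cell markers summed to 31.5 to 58.4 for Tumor-macrophage, 3.15 to 7.58 for Tumor-AM and 12.7 to 17.1 for Ctrl-AM, and all 4 that were tested were higher in Tumor-macrophage compared with Tumor-AM. *Pax5* and *Cr2* did not reach the filter. Their means were 0.0866 and 0.106 for Tumor-macrophage, 0 and 0.0901 for Tumor-AM, and 0.0238 and 0.0872 for Ctrl-AM. The part of such cells in the *Cd40*, *Cd86* and *Cd80* values was not tested.

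*Cd274* encodes PD-L1, the broadly expressed ligand of PD-1, and was the only member whose mean was highest in Tumor-AM with no overlap with either other group and past the threshold against both. It lies at chr19:29367455-29388095 on the plus strand. Its FPKM was 48.3, 59.1 and 55.2 for Ctrl-AM, 87.4, 86.0 and 88.5 for Tumor-AM, and 75.6, 73.3 and 71.6 for Tumor-macrophage. Tumor-AM was higher than Ctrl-AM by 0.68 ± 0.08 (adjusted p = 0.000767), 1.61 times in mean FPKM, and this call held in all 18 alternative settings. Tumor-macrophage was lower than Tumor-AM by a smaller step, -0.25 ± 0.08 (adjusted p = 0.0252), which lost the threshold in 6 of 18 settings, with adjusted p up to 0.0733. The 4 of these that left out a sample were those without Tumor-AM 1 (adjusted p = 0.0584), Tumor-AM 3 (0.0659), Tumor-macrophage 2 (just above the threshold) and Tumor-macrophage 3 (0.0733). Tumor-macrophage was higher than Ctrl-AM by 0.44 ± 0.08 (adjusted p = 0.000809), which became 0.20 (adjusted p = 0.0612) after rescaling to TPM. In the annotation, 9.22% of the 75-base windows of its transcript also occur in other transcripts, and an antisense gene overlaps it. The use of strand was not stated, so some of its reads cannot be assigned with certainty.

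*Pdcd1lg2*, which encodes PD-L2, a ligand of PD-1 found mainly on antigen-presenting cells, lies next to *Cd274* on the same strand (chr19:29410919-29471161). It was low throughout, at 2.28, 2.47 and 1.78 for Ctrl-AM, 1.13, 2.06 and 1.07 for Tumor-AM, and 3.53, 4.77 and 2.57 for Tumor-macrophage. Tumor-AM had the lowest values but overlapped Ctrl-AM, and Tumor-macrophage lay above both. The difference between the AM groups was -0.41 ± 0.21 (adjusted p = 0.258, 95% confidence interval -0.87 to 0.05). Tumor-macrophage was higher than Tumor-AM by 0.93 ± 0.21 (adjusted p = 0.00353), and differed from Ctrl-AM by 0.52 ± 0.21 (adjusted p = 0.0542). The last passed without Tumor-macrophage 3 (0.69, adjusted p = 0.0211), without Tumor-AM 2 (0.52, adjusted p = 0.0338) and in a fit of the 2 compared groups only (0.52, adjusted p = 0.0458). The AM values rested on an estimated 21 to 55 reads per sample, and the antisense gene *A930007I19Rik* overlaps this locus.

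The ratio of *Cd274* to *Pdcd1lg2* was 21.2, 23.9 and 31.0 for Ctrl-AM, 77.2, 41.7 and 82.7 for Tumor-AM, and 21.4, 15.4 and 27.8 for Tumor-macrophage. Tumor-AM lay above both other groups in every sample (exact permutation test, p = 0.1 against each), and these 2 groups overlapped each other (p = 0.5, exact permutation test).

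**Figure D2:**
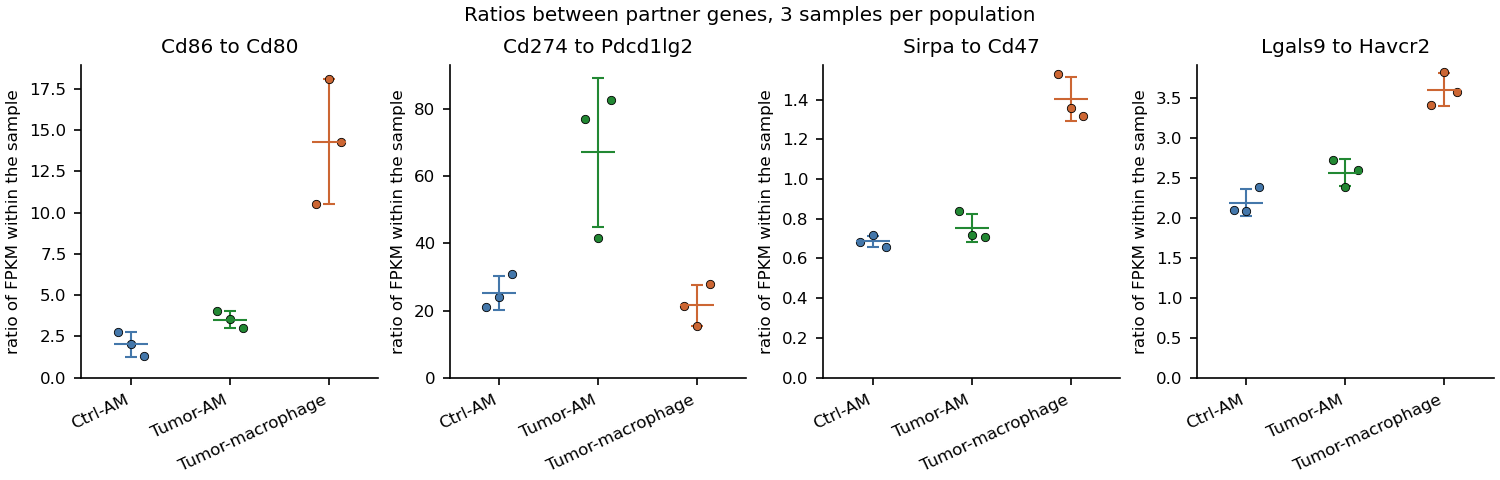
Ratio of FPKM of 2 partner genes within each sample (points), with mean and SD of 3 samples, for 4 pairs. The ratio of *Cd86* to *Cd80* rises from a mean of 2.02 for Ctrl-AM to 14.3 for Tumor-macrophage, and that of *Cd274* to *Pdcd1lg2* is highest in Tumor-AM, with a mean of 67.2.

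*Lgals9* encodes galectin-9, a sugar-binding protein released and displayed by myeloid cells and a ligand of TIM-3 (chr11:78962974-78984946, minus strand). Its FPKM was 112.6, 119.2 and 133.3 for Ctrl-AM, 173.4, 151.7 and 150.1 for Tumor-AM, and 294.7, 294.3 and 303.8 for Tumor-macrophage. The groups did not overlap, in the same order as for *Cd86*. It was higher in Tumor-AM compared with Ctrl-AM by 0.38 ± 0.08 (adjusted p = 0.0173), and higher in Tumor-macrophage compared with Tumor-AM by 0.91 ± 0.08 (adjusted p = 5.48e-06). The smaller of these differences missed the threshold after rescaling to TPM (0.24, adjusted p = 0.132) and without Ctrl-AM 1 (adjusted p = 0.0787), Ctrl-AM 2 (0.0615) or Tumor-AM 1 (0.0535).

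Promoter sequences, 250 bases before to 50 after the transcription start as annotated by RefSeq on GRCm38.p6, matched 6 of the 10 genes (*Cd274*, *Pdcd1lg2*, *Cd80*, *Havcr2*, *Lgals9* and *Cd47*). Both strands were searched for GAAANNGAAA, the core of an interferon-response element, and for GGGANNNNCC, the form of an NF-kappaB site. TATA and AP-1 motifs had been searched in the members first and were not carried on to the background. *Lgals9* held 2 interferon-response type matches, both reading GAAANNGAAA on the opposite strand, 55 bases before and 15 bases after the start, and 1 NF-kappaB type match 129 bases before it. Of 32544 promoters, 3.45% held the first motif and 0.221% held it 2 or more times. *Pdcd1lg2* and *Cd80* held 1 NF-kappaB type match each, as did 20.8% of all promoters at least once. Neither motif was found in the windows of *Cd274*, *Havcr2* and *Cd47*. The first 275 bases of 2 windows are shown, 5′ to 3′ along the gene, because both genes were higher in Tumor-AM compared with Ctrl-AM and differ in these matches. Capitals mark the matches. *Lgals9* is chr11:78984900-78985174, minus strand, and *Cd274* is chr19:29367188-29367462, plus strand.
Lgals9: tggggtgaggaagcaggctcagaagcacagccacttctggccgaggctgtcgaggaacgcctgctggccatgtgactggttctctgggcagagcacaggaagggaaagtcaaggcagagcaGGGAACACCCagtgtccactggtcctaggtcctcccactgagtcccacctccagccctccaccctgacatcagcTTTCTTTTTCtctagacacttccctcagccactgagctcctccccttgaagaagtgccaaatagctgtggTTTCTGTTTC
Cd274: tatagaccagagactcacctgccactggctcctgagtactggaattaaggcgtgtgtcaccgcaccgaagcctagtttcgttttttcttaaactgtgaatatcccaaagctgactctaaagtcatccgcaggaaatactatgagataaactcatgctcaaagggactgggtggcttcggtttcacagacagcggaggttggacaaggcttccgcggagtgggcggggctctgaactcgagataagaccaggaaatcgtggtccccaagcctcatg
A match describes these letters only, and their absence says only that the letters are not in this window.

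*Havcr2* encodes TIM-3, an inhibitory receptor found on exhausted T cells and also on myeloid cells (chr11:46454935-46481255, plus strand). It was at 53.5, 57.0 and 56.0 for Ctrl-AM, 63.9, 63.6 and 57.8 for Tumor-AM, and 86.3, 77.0 and 84.9 for Tumor-macrophage. The AM groups did not overlap, yet their difference of 0.15 ± 0.07 did not pass (adjusted p = 0.240, 95% confidence interval -0.01 to 0.31). Tumor-macrophage was higher than Tumor-AM by 0.42 ± 0.07 (adjusted p = 0.000805). *Lgals9* exceeded *Havcr2* in every sample, with a ratio of 2.1, 2.09 and 2.38 for Ctrl-AM, 2.72, 2.38 and 2.60 for Tumor-AM, and 3.41, 3.82 and 3.58 for Tumor-macrophage (exact permutation test, p = 0.1 in each comparison).

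*Pvr* encodes PVR or CD155, a nectin-like ligand of the inhibitory receptor TIGIT and of the activating receptor CD226 (chr7:19903578-19921160, minus strand). It was at 1.15, 1.60 and 1.57 for Ctrl-AM, 3.10, 2.71 and 4.03 for Tumor-AM, and 16.9, 14.1 and 19.5 for Tumor-macrophage. The 3 groups were separate and stepwise, as for *Cd86*. Tumor-AM was higher than Ctrl-AM by 0.80 ± 0.16 (adjusted p = 0.0103), 2.28 times in mean FPKM, and Tumor-macrophage was higher than Tumor-AM by 2.06 ± 0.16 (adjusted p = 1.45e-06), 5.14 times. The AM values rested on an estimated 38 to 150 reads. PVR is also carried by fibroblasts, whose 6 markers summed to 3.72 to 6.70 for Ctrl-AM, 12.8 to 85.3 for Tumor-AM and 9.84 to 17.1 for Tumor-macrophage. Tumor-AM 3 had both the highest fibroblast sum and the highest *Pvr* of its group. Without that sample the difference between the AM groups was 0.68 (adjusted p = 0.0384). The lowest fibroblast sum of Tumor-AM, 12.8, was still above those of all Ctrl-AM samples. The part of fibroblasts in the *Pvr* values was not tested. The overlapping plus-strand genes *Gm16184* and *Gm16251* leave some of its reads uncertain.

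*Cd47* and *Sirpa*, ligand and receptor of the signal that restrains phagocytosis, had the highest FPKM of the 10 genes in AMs. *Cd47* (chr16:49800533-49915010, plus strand) was at 480.3, 484.7 and 512.8 for Ctrl-AM, 502.2, 514.6 and 514.7 for Tumor-AM, and 200.0, 193.5 and 209.7 for Tumor-macrophage. The AM groups overlapped and every Tumor-macrophage sample was below them. *Cd47* differed between the AM groups by 0.05 ± 0.06 (adjusted p = 0.666, 95% confidence interval -0.08 to 0.19), and was lower in Tumor-macrophage compared with Tumor-AM by -1.34 ± 0.06 (adjusted p = 3.46e-08).

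*Sirpa* (chr2:129592835-129632228, plus strand) was at 328.4, 347.7 and 338.1 for Ctrl-AM, 420.5, 369.3 and 365.0 for Tumor-AM, and 306.2, 264.1 and 276.9 for Tumor-macrophage. The AM groups did not overlap, but the difference of 0.18 ± 0.08 did not pass (adjusted p = 0.184, 95% confidence interval 0.01 to 0.36). Tumor-macrophage was lower than Tumor-AM by -0.45 ± 0.08 (adjusted p = 0.000853) and lower than Ctrl-AM by -0.26 ± 0.08 (adjusted p = 0.0172). The last lost the threshold without Ctrl-AM 2 (adjusted p = 0.0614), Tumor-macrophage 2 (0.0546) or Tumor-macrophage 3 (0.0510). The ratio of *Sirpa* to *Cd47* was 1.32 to 1.53 for Tumor-macrophage, against 0.659 to 0.717 for Ctrl-AM and 0.709 to 0.837 for Tumor-AM, and *Sirpa* was the more abundant of the pair only in Tumor-macrophage. Exact permutation tests of the ratio gave p = 0.1 for Tumor-macrophage against each AM group and p = 0.2 between the AM groups.

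**Figure D3:**
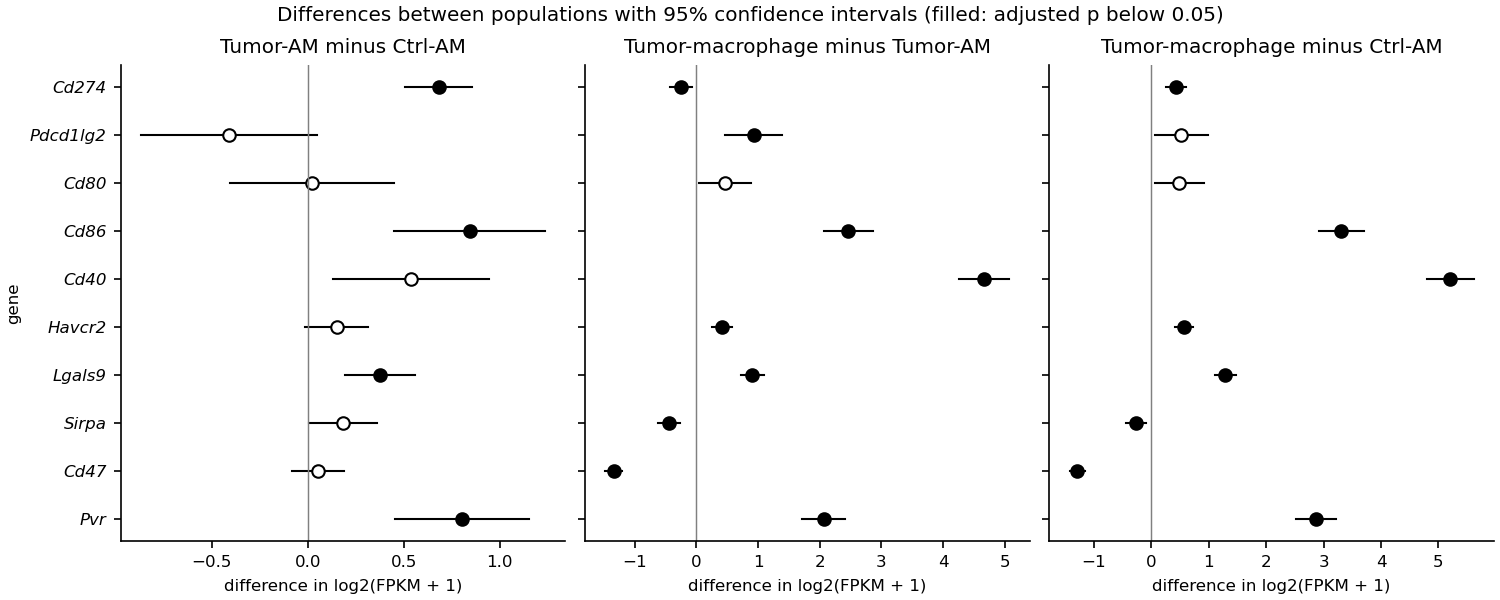
Differences in log2(FPKM + 1) of the 10 genes in the 3 comparisons (horizontal axis), with 95% confidence intervals from the fit. Filled points passed an adjusted p of 0.05. *Cd40* has the largest difference between Tumor-macrophage and both AM groups, 4.67 and 5.21, and *Cd47* the most negative, -1.34 and -1.29.

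The order of the 10 genes by level changed between populations. Since FPKM is per length of transcript, levels can be set side by side. In Ctrl-AM the order of mean FPKM was *Cd47* (492.6), *Sirpa* (338.1), *Lgals9* (121.7), *Havcr2* (55.5), *Cd274* (54.2), *Cd86* (16.9), *Cd80* (8.64), *Pdcd1lg2* (2.18), *Pvr* (1.44) and *Cd40* (0.985). *Havcr2* and *Cd274* overlapped there, as did *Pvr* and *Cd40*. In Tumor-AM, *Cd274* stood above *Havcr2* in every sample, 87.3 ± 1.26 against 61.8 ± 3.45 (SD, n = 3). In Tumor-macrophage, *Lgals9* (297.6 ± 5.40) and *Sirpa* (282.4 ± 21.6) led with overlapping values, followed by *Cd47* (201.1 ± 8.15) and *Cd86* (172.8 ± 9.76), then *Havcr2* (82.8 ± 5.01), and *Cd40* (70.9 ± 9.84) overlapped both *Havcr2* and *Cd274* (73.5 ± 1.99). *Cd40* rose from percentile 6.89 of all tested genes in Ctrl-AM to 87.9 for Tumor-macrophage, and *Cd86* from 64.6 to 94.7.

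TAM transcripts in the Tumor-AM samples bear on the genes that were higher in both tumor populations. The complement genes *C1qa*, *C1qb* and *C1qc*, chosen after their values were seen, reached 0.451% to 0.692% of their Tumor-macrophage level in Tumor-AM, *Cx3cr1* reached 0.844%, *Tgfb3* 4.18%, *Ccr2* 10.9% and *Ly6c2* 14.0%. *Cd40* reached 2.56%, *Cd86* 17.9%, *Pvr* 19.5%, *Lgals9* 53.2% and *Cd274* 119%. The excess of Tumor-AM over Ctrl-AM, as a share of the Tumor-macrophage mean, was 0.331% to 0.531% for the C1q genes, and 0.233%, 2.27%, 4.58% and 6.78% for the TAM markers *Cx3cr1*, *Tgfb3*, *Ly6c2* and *Ccr2*. It was 1.17% for *Cd40*, 8.15% for *Cd86*, 10.9% for *Pvr*, 12.3% for *Lgals9* and 45.0% for *Cd274*. The part of TAM transcripts in the Tumor-AM values was not tested.

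Partners and pathway genes of the 10 were taken from 10 lists, also chosen with earlier results of these data known. The lists held 97 genes in all, of which 96 were in the data and 74 were tested. In Tumor-AM against Ctrl-AM, 20 were higher and 0 were lower by limma (33 and 1 at an unadjusted p under 0.05), with a median difference of 0.23. The count fell to 12 without Ctrl-AM 1, 12 without Ctrl-AM 3 and 11 without Tumor-AM 3. In Tumor-macrophage against Tumor-AM, 43 were higher and 11 were lower (median 0.43), and against Ctrl-AM, 52 and 10 (median 0.84). For these counts and those of each list below, the shares of all tested genes in Tumor-AM against Ctrl-AM were 7.11% higher and 3.18% lower. They were 24.2% and 24.4% in Tumor-macrophage against Tumor-AM, and 27.7% and 27.1% against Ctrl-AM.

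Interferon-gamma and NF-kappaB signals control *Cd274* and *Cd40* in macrophages. Genes that carry and answer them gave 7 of the 20, out of 16 tested (12 higher and 0 lower at an unadjusted p under 0.05). *Irf1*, a transcription factor that acts on *Cd274*, was at 39.6, 42.6 and 34.2 for Ctrl-AM, 68.9, 117.1 and 77.8 for Tumor-AM, and 185.0, 165.9 and 139.0 for Tumor-macrophage, and was higher in Tumor-AM compared with Ctrl-AM by 1.13 ± 0.18 (adjusted p = 0.00390). *Socs3*, a feedback inhibitor of cytokine signalling, was higher by 1.12 ± 0.13 (adjusted p = 0.000599), and *Irf9* by 0.83 ± 0.15 (adjusted p = 0.00741). *Irf8*, *Ifngr2* and *Nfkbia* also passed, with differences of 0.45, 0.36 and 0.33, and each of these 3 lost the threshold in at least 4 of 18 settings. In Tumor-macrophage against Tumor-AM, 12 of the 16 were higher and 0 were lower (13 and 0 at an unadjusted p under 0.05, against 27.2% and 27.3% of all tested genes), among them *Socs1* (2.52 ± 0.19) and *Ciita* (2.51 ± 0.22), the master regulator of MHC class II. *Socs1* and *Ciita* did not pass between the AM groups (adjusted p = 0.104 and 0.987).

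Downstream of CD40, 2 of 10 signal transducers were higher in Tumor-AM, 7 were higher in Tumor-macrophage compared with Tumor-AM, and 0 were lower in either. At an unadjusted p under 0.05, 1 was lower in Tumor-AM and 0 in Tumor-macrophage. *Tnfaip3*, which encodes the NF-kappaB inhibitor A20, was 1.19 ± 0.18 higher in Tumor-AM compared with Ctrl-AM (adjusted p = 0.00271), and its difference between Tumor-macrophage and Tumor-AM was 0.06 (adjusted p = 0.802). *Nfkb2*, at 0.29 (adjusted p = 0.0468), lost the threshold in 13 of 18 settings. The adaptor *Traf1* was 2.84 ± 0.19 higher in Tumor-macrophage compared with Tumor-AM, *Birc3* 1.22 ± 0.13 and *Relb* 1.17 ± 0.16. Of 3 tested TNF superfamily genes, 0 passed between the AM groups, also at an unadjusted p under 0.05, and 3 were higher in Tumor-macrophage. *Tnfsf9*, the ligand of 4-1BB, was at 0.930 to 2.93 in the 6 AM samples and at 32.4, 28.1 and 32.1 for Tumor-macrophage (3.44 ± 0.22 against Tumor-AM). *Tnfrsf14*, which encodes HVEM, the receptor of BTLA and LIGHT, was listed at 0 in all Ctrl-AM samples and at 11.1, 8.43 and 8.65 for Tumor-macrophage.

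Among the relatives of the B7 ligands, *Cd276*, which encodes B7-H3, was at 0.629, 0.935 and 1.41 for Ctrl-AM, 2.06, 1.98 and 2.94 for Tumor-AM, and 5.52, 6.02 and 5.17 for Tumor-macrophage. Its difference between the AM groups was 0.75 ± 0.17 (adjusted p = 0.0207), lost in 4 of 18 settings. *Icosl*, the ligand of ICOS, was lower in Tumor-macrophage compared with Tumor-AM by -0.38 ± 0.11 (adjusted p = 0.0146), while VISTA, listed as *4632428N05Rik*, was higher by 0.79 ± 0.13 (adjusted p = 0.000564). *Cmtm6*, whose product keeps PD-L1 at the cell surface, was at 42.6, 42.2 and 41.8 for Ctrl-AM, 57.7, 56.4 and 50.6 for Tumor-AM, and 101.2, 83.6 and 89.4 for Tumor-macrophage. Unlike *Cd274*, it was higher in Tumor-macrophage compared with Tumor-AM, by 0.72 ± 0.08 (adjusted p = 4.13e-05). *Pdcd1*, the gene of PD-1 itself, was at 0.0945 to 1.48 in AMs and at 1.77, 0.610 and 4.75 for Tumor-macrophage.

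**Figure D4:**
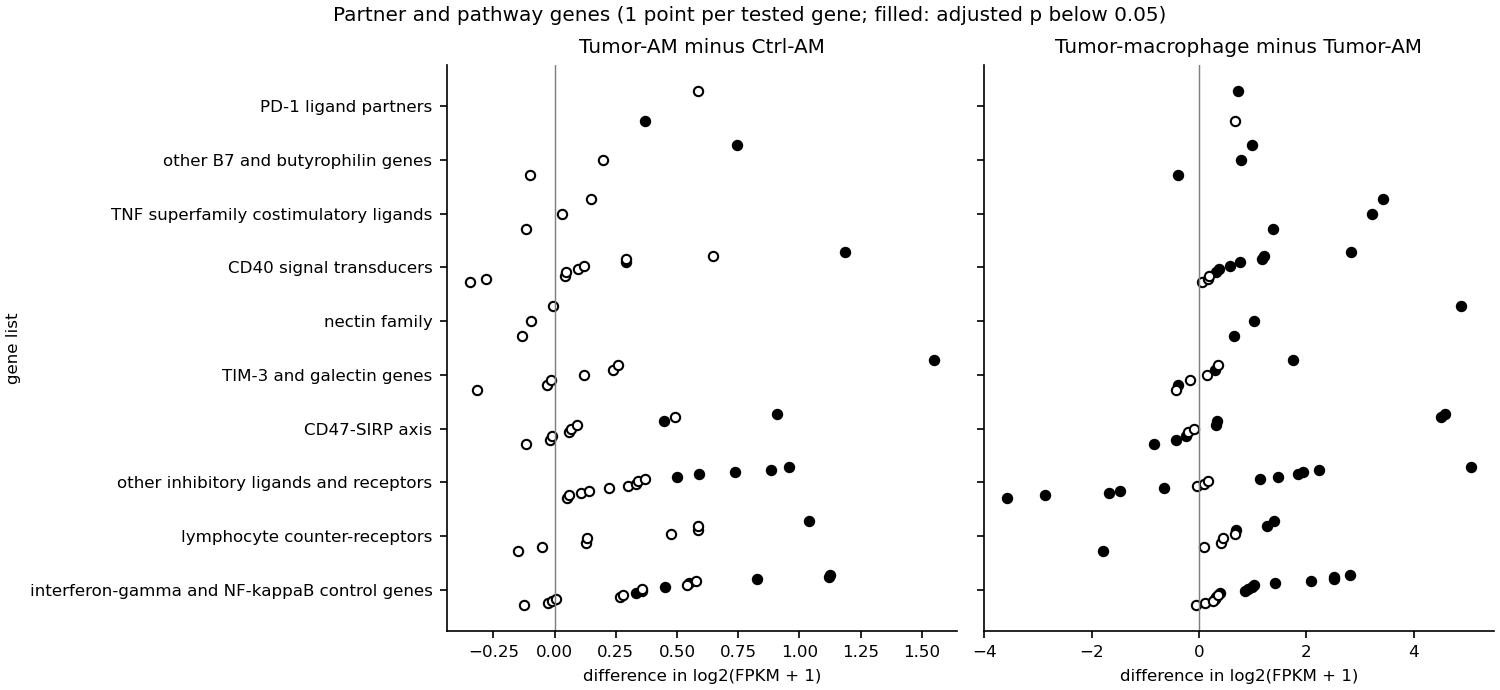
Differences in log2(FPKM + 1) of the tested partner and pathway genes (1 point per gene, horizontal axis) by list, for Tumor-AM minus Ctrl-AM (left) and Tumor-macrophage minus Tumor-AM (right, wider scale). Filled points passed an adjusted p of 0.05, and in the left panel all 20 filled points lie above 0.

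Of 3 tested nectin relatives of *Pvr*, 0 passed between the AM groups, also at an unadjusted p under 0.05, and all 3 were higher in Tumor-macrophage compared with Tumor-AM. *Cadm1*, a nectin-like adhesion molecule, was at 0.135 to 0.689 in the AM samples and at 34.9, 34.4 and 34.8 for Tumor-macrophage (4.88 ± 0.15 against Tumor-AM). *Pvrl2*, another ligand of TIGIT and CD226, was higher by 1.03 ± 0.16. Of 7 tested genes listed with TIM-3 and the galectins, 1 passed between the AM groups. This was *Ceacam1*, a partner of TIM-3, at 1.20, 2.00 and 1.36 for Ctrl-AM, 6.07, 5.29 and 7.75 for Tumor-AM, and 5.71, 2.58 and 5.79 for Tumor-macrophage (1.55 ± 0.25 between the AM groups, adjusted p = 0.00376).

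Around the CD47 and SIRPα pair, 2 of 9 genes were higher in Tumor-AM compared with Ctrl-AM, against 7.11% of all tested genes. In Tumor-macrophage compared with Tumor-AM, 4 were higher and 3 lower, against 24.2% and 24.4%. The 2 were *Thbs1* and *Fyb*, an adaptor protein gene, whose difference of 0.45 ± 0.12 (adjusted p = 0.0482) lost the threshold in 13 of 18 settings. *Ptk2b*, a kinase gene and 1 of the 3 lower, at -0.23 ± 0.09 (adjusted p = 0.0478), lost it in 12 of 18. *Thbs1*, which encodes thrombospondin-1, a secreted ligand of CD47, was highest where *Cd47* was lowest. It was at 2.60, 2.77 and 3.62 for Ctrl-AM, 6.27, 7.51 and 5.70 for Tumor-AM, and 193.8, 144.6 and 199.1 for Tumor-macrophage. It was higher in Tumor-AM compared with Ctrl-AM by 0.91 ± 0.15 (adjusted p = 0.00440), and in Tumor-macrophage compared with Tumor-AM by 4.58 ± 0.15 (adjusted p = 2.98e-09). *Sirpb1a* and *Sirpb1b*, close relatives of *Sirpa* whose reads may be shared, were lower in Tumor-macrophage compared with Tumor-AM, by -0.43 ± 0.10 and -0.83 ± 0.10. *Ptpn6*, the gene of SHP-1, the phosphatase that SIRPα recruits, was higher by 0.31 ± 0.08 (adjusted p = 0.0102), and lost the threshold after rescaling to TPM (adjusted p = 0.0852).

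Of 14 tested inhibitory ligands and receptors outside these families, 5 were higher in Tumor-AM compared with Ctrl-AM, and 6 were higher and 5 lower in Tumor-macrophage compared with Tumor-AM. *Cd200*, a ligand that restrains myeloid cells, and its receptor *Cd200r1* were both highest in Tumor-AM. *Cd200r1* was at 49.5, 52.5 and 46.2 for Ctrl-AM, 71.2, 73.4 and 80.1 for Tumor-AM, and 20.5, 22.0 and 26.4 for Tumor-macrophage (0.59 ± 0.10 between the AM groups, adjusted p = 0.00488). *Cd200* was at 22.7, 17.9 and 13.9, then 31.8, 37.3 and 37.9, then 2.56, 1.06 and 2.96 in the same order of groups, and its difference of 0.96 ± 0.24 between the AM groups (adjusted p = 0.0299) was lost in 7 of 18 settings. *Fgl2*, a secreted ligand of inhibitory Fc receptors, was at 1.58, 1.44 and 1.32 for Ctrl-AM, 3.67, 3.65 and 3.26 for Tumor-AM, and 158.3, 147.8 and 144.3 for Tumor-macrophage (0.89 ± 0.09 between the AM groups, adjusted p = 0.000435). *Pirb* (0.50 ± 0.08, adjusted p = 0.00309) and *Cd300a* (0.74 ± 0.17, adjusted p = 0.0206, lost in 5 of 18 settings), both inhibitory receptors of myeloid cells, completed the 5. *Cd24a*, whose product is a ligand of Siglec-10 type receptors, and *Nt5e*, the gene of the adenosine-forming enzyme CD73, were lower in Tumor-macrophage compared with Tumor-AM, by -2.87 ± 0.17 and -1.48 ± 0.19, while *Entpd1*, the gene of CD39, was higher by 1.94 ± 0.13.

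Of 14 listed lymphocyte receptors for these ligands, 6 did not reach the filter. *Tnfrsf18*, which encodes GITR, was at 12.0 to 17.9 FPKM in the AM samples. Between the AM groups 1 of the 8 tested passed, *Tnfrsf4*, which encodes OX40 (1.04 ± 0.27, adjusted p = 0.0384, lost in 7 settings). In Tumor-macrophage against Tumor-AM, *Lag3*, *Tnfrsf9* and *Cd27* were higher and *Tnfrsf18* was lower, by -1.78 ± 0.16. Of 10 T and NK cell markers 7 were tested. In Tumor-macrophage compared with Tumor-AM, 5 were higher and 1 lower, against 24.2% and 24.4% of all tested genes. The T cell receptor complex genes *Cd3d* and *Cd3g* were among the higher, by 0.92 ± 0.26 and 0.87 ± 0.29, while *Cd3e*, at 0.50 ± 0.27, did not pass (adjusted p = 0.153). The lower marker was *Cd2*, which averaged 501.6 FPKM for Ctrl-AM, 438.2 for Tumor-AM and 18.9 for Tumor-macrophage (-4.57 ± 0.27 against Tumor-AM, adjusted p = 1.93e-07). The list summed to 499 to 527, 418 to 480 and 43.1 to 82.2 in these groups, most of it *Cd2* in the AM samples but not in Tumor-macrophage. The part of lymphocytes in these receptor values was not tested.

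The genes with the most similar profile were those with the smallest root mean square (RMS) difference of log2(FPKM + 1) over the 9 samples, each gene centred on its own mean. For *Cd40* these were *Fyb* (RMS 0.253), *Irg1* (0.256) and *Zmynd15* (0.258), and for *Cd86* they were *Il7r* (0.174), *Gpr132* (0.224) and *Scarf1* (0.229). *Pvr* was nearest to *Neurl3* (0.149), *Nfkbie* (0.153) and *Ctsb* (0.161), and *Lgals9* to *Zbtb18* (0.0624), *Pacsin2* (0.0801) and *Jak2* (0.0925). *Cd274* was nearest to *Exoc3l4* (0.0967), *Gde1* (0.108) and *Slc25a32* (0.110). *Cd47* was nearest to *Taldo1* (0.0546), *Lta4h* (0.0715) and *Pnpla2* (0.0801), and *Sirpa* to *Leprot* (0.0527), *Tcf25* (0.0631) and *Ptger1* (0.0650). *Havcr2* was nearest to *Itm2c* (0.0452), *Cd80* to *Nsun4* (0.0965), and *Pdcd1lg2* to *Rgl1* (0.157). Among the 10 genes themselves, *Cd80* and *Havcr2* were the closest pair (0.208), followed by *Cd274* and *Havcr2* (0.297), *Cd86* and *Pvr* were 0.361 apart, and *Cd40* and *Cd47* were the farthest (2.96).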

How the data were processed

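RNA sequencing of 9 samples was analysed from deposited FPKM (fragments per kilobase of transcript, relative to all mapped fragments), 1 value per gene symbol. The authors amplified full-length cDNA (SMART-Seq HT), made Nextera libraries, sequenced 75-base single reads, mapped them to mm10 with TopHat2 2.1.1 and Bowtie2, and computed FPKM with Cufflinks (Cuffdiff 2.2.1 per the labels). The annotation, the use of strand and the treatment of reads with several matches are not given in the sources used here. FPKM does not correct for a few abundant RNAs that take up reads in 1 population.

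Here, group means of log2(FPKM + 1) were fitted over all 9 samples with limma 3.58.1 (R 4.3.3) and a prior variance that follows intensity, for genes with an FPKM of 1 or more in 3 or more samples. The limma p-values set the difference of group means against the spread between samples within groups, pooled over the 3 groups. The fit took all samples as independent, though Tumor-AM and Tumor-macrophage samples may share mice. The threshold was an adjusted p of 0.05. Single values were compared with two-sided exact permutation tests. The fit was tested on simulated data. Alternatives were a pseudocount of 0.1, no filter, a filter at 5, TPM, median-ratio and quantile scaling, a constant prior variance, the 2 compared groups only, a replicate block and leaving out each sample. Reads were estimated from ratios of low values, with an uncertain absolute scale, and cover counting error only. Members and lists were chosen with earlier results of these data known. Genes of the lists were named where they passed the threshold, with examples chosen for their role, and 1 gene that the counts include and 1 promoter motif are not reported here. Python 3.11.15, numpy 2.4.6, pandas 2.3.3, scipy 1.17.1 and matplotlib 3.10.9 were used.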

Additional observations from a re-analysis of the deposited data

How the results depend on the processing

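Of the 30 differences of the 10 genes, 19 kept their direction and their side of the threshold in all settings tried, 5 lost the threshold in some, 4 gained it in some and 2, both far from the threshold, changed sign. *Pdcd1lg2* was not tested with the filter at 5. The sign changes were between the AM groups: *Cd80* was -0.11 after rescaling to TPM, -0.0197 after quantile normalization and between -0.0535 and 0.124 in the fits without 1 sample, and *Cd47* was -0.0868 after rescaling to TPM. The cause was not tested. The count of the 10 genes past the threshold ran from 3 to 4, 8 to 10 and 7 to 10 over the 3 comparisons. Calls of the 20, 54 and 62 partner and pathway genes kept their sign, and 10, 9 and 10 of them lost the threshold in at least 1 setting. Over all genes, Tumor-AM against Ctrl-AM gave 1100 calls and 535 to 1255 when 1 sample was left out, with 535 without Ctrl-AM 1, 682 without Ctrl-AM 2, 546 without Ctrl-AM 3 and 675 without Tumor-AM 3.

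Rescaling to TPM moved the median of all genes to -0.11, -0.08 and -0.22 in Tumor-AM against Ctrl-AM, Tumor-macrophage against Tumor-AM and Tumor-macrophage against Ctrl-AM. Calls over all genes, higher and lower, were then 475 and 824, 2129 and 3129, and 2130 and 4409, in place of 760 and 340, 2588 and 2603, and 2960 and 2900.

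Deviations of samples with the same replicate number correlated at -0.06 to 0.16, above 0 in 7 of 9 pairs. Since not every pair was over 0.1, the numbers were not taken as pairs. The closest sample of another group had the same number in 12 of 18 cases, where 6 would be expected if each were equally likely. These cases include Ctrl-AM against tumor groups, which cannot share a mouse, so the count cannot show shared mice. The highest correlation, 0.159, was between Ctrl-AM 2 and Tumor-AM 2. Between Tumor-AM and Tumor-macrophage, which could share mice, the correlations were 0.026, 0.0964 and 0.109. With a replicate block, 938, 5069 and 5772 genes passed against 1100, 5191 and 5860 without it, and 4, 10 and 10 of the members. *Cd80* then passed in Tumor-macrophage against Tumor-AM (adjusted p = 0.0475 by limma) and against Ctrl-AM (0.0356), and *Pdcd1lg2* against Ctrl-AM (0.0124). Fits that left 2 samples in a group assume that they vary like the others. Values of *Cd40*, *Pdcd1lg2* and *Pvr* in AMs rested on few reads.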
